A study of Mus musculus with 8 samples.

Results

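The genes described here encode adrenergic receptors of the heart and the proteins that switch them off during sustained stimulation. They are the beta receptor genes Adrb1 and Adrb3, the alpha1 receptor genes Adra1a and Adra1b, the receptor kinase genes Grk2 and Grk5, the arrestin genes Arrb1 and Arrb2, and Rgs2. The 9 genes were picked by symbol as a receptor family and its regulators, with no threshold on measured values, from 55487 gene identifiers in the count table. Of the 9, 8 passed the filter on low counts that left 17636 genes for testing, and Adrb3 did not.

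Messenger RNA from mouse hearts was sequenced in 4 groups of 2 libraries each. The groups were wild type (WT) mice given saline, WT mice given isoproterenol, Set7KO mice given saline and Set7KO mice given isoproterenol. Isoproterenol, a synthetic agonist of beta receptors, was injected under the skin at 60 mg/kg on each of 14 days, and saline was given on the same schedule. Set7KO mice lack the lysine methyltransferase Set7 (gene Setd7) in all tissues and were bred from heterozygous parents; the sources do not name the deleted stretch of the gene. The sources used here do not give strain, age, sex or the chambers sampled, nor whether each library came from its own animal, so p-values measure only the spread between these libraries, which may be technical.

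Adrenergic receptors are G protein-coupled receptors for noradrenaline and adrenaline. Beta receptors act mainly through the stimulatory G protein, adenylyl cyclase, cyclic AMP and protein kinase A, which make the heartbeat faster and stronger, whereas alpha1 receptors act through Gq and phospholipase C. An occupied receptor is phosphorylated by receptor kinases, then bound by arrestins that uncouple it from its G protein and draw it into the cell, and RGS proteins shorten the signal by speeding GTP hydrolysis on the G protein. Transcript levels do not measure receptor density at the cell surface.

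The libraries held 27847069 to 51705705 counts. Setd7 stood at 43.0 to 72.6 CPM (read counts scaled to an equal library size) in the 4 WT libraries and at 3.79 to 5.70 CPM in the 4 Set7KO libraries, in keeping with the genotype labels. Libraries differed in their balance of GC-rich and GC-poor genes. The median log2 deviation of the highest of 5 GC classes minus that of the lowest was -1.08 and -0.78 in the WT isoproterenol libraries and -0.91 in Set7KO saline replicate 2, and it lay between 0.19 and 0.86 in the other 5. These 3 libraries carry the serial numbers 10, 11 and 9 in their titles, the highest of the 8, and Set7KO saline replicate 2 shares its title letter, C, with the WT saline libraries and not with the other library of its group, B. What numbers and letters stand for is not stated, and replicate numbers here follow accession order and pair nothing. Values that also carry a per-library correction for GC content and exonic length are called values with offsets below. All 8 cardiomyocyte markers had counts in every group, whereas the atrial marker Myl7 ranged from 0.386 CPM in WT isoproterenol replicate 1 to 445 CPM in WT saline replicate 1.

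Across all 8 libraries, Grk2 was the most abundant of the 9 transcripts per length and Adrb3 the least. Levels in this paragraph are CPM per kilobase of exon. Grk2, which encodes the main receptor kinase of the myocardium, had a mean of 27.9 ± 6.39 (SD, n = 8). Adra1b, an alpha1 receptor coupled to Gq, followed at 15.3 ± 5.85 and lay below Grk2 in all 8 libraries, although the ranges of these genes across libraries overlapped. Grk5, a receptor kinase held at the plasma membrane, stood at 5.86 ± 1.496 and Arrb2, an arrestin, at 5.61 ± 1.55; Grk5 was above Arrb2 in 4 of 8 libraries, so their order was not set. Arrb1, its paralog, at 4.43 ± 0.675 and Adrb1, the main beta receptor of cardiomyocytes, at 4.32 ± 0.921 likewise lay within each other's spread. Rgs2, which acts on Gq, stood at 3.29 ± 1.71 and Adra1a, the other alpha1 receptor of cardiomyocytes, at 2.38 ± 1.13; Rgs2 was the higher in 7 of 8 libraries.

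**Figure D1:**
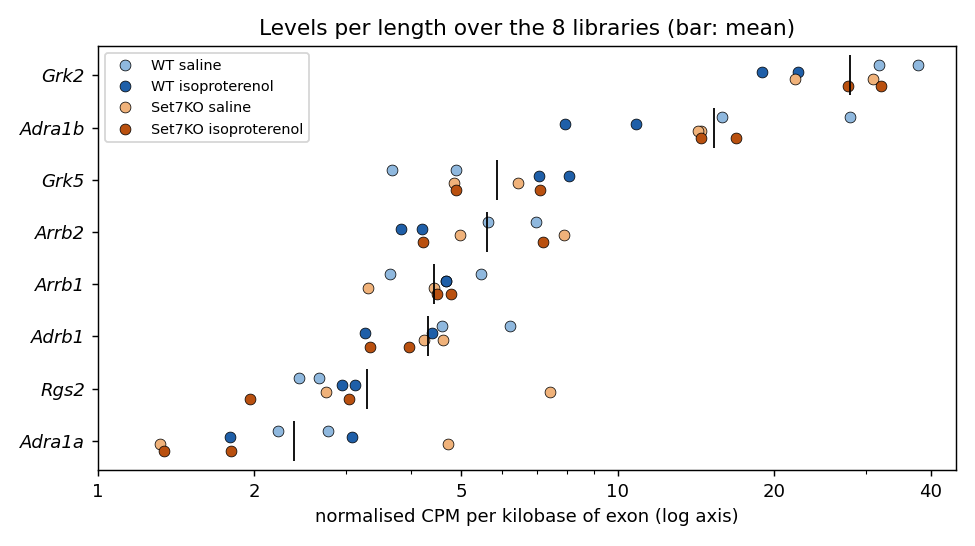
Levels of the 8 genes that passed the filter, in normalised CPM per kilobase of exon on a log axis, with 1 point per library coloured by group and a bar at the mean of the 8 libraries. Neighbouring genes overlap in range; Rgs2 and Adra1a each have 1 point, Set7KO saline replicate 2, to the right of the rest.

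The beta receptor gene Adrb3, best known from fat cells, was at the limit of detection. It had 5 counts in Set7KO saline replicate 2, 2 counts in WT saline replicate 2 and 0 in the other 6 libraries, where a count of 0 allows up to 3 counts, or 0.0681 to 0.112 CPM. Presence or a difference between groups was not detectable at this depth. Adrb3 (ENSMUSG00000031489, chromosome 8, 27225776 to 27250616, minus strand, GRCm38) shares 839 exonic bases with the antisense gene Gm45470, and the sources used here do not say whether counting used strand. Of the fat cell markers, Lep and Ucp1 had 0 counts in every library, Adipoq reached 0.866 CPM, and the sum of the 7 markers lay between 0 and 8.08 CPM.

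Adrb1, through which isoproterenol acts on cardiomyocytes, stood at 15.5 and 21.0 CPM in the WT saline libraries against 11.0 and 14.8 CPM in those of WT mice given isoproterenol. In Set7KO the levels were 14.3 and 15.6 CPM with saline, against 13.4 and 11.3 CPM with isoproterenol. Within each genotype both isoproterenol libraries lay below both saline libraries. Of all genes tested, 72.7% in WT and 34.7% in Set7KO likewise did not overlap between treatments, in either direction. For Adrb1 the highest isoproterenol library, in WT, exceeded the lowest saline library, in Set7KO. Averaged over genotypes the mean was 12.6 ± 1.82 CPM after isoproterenol against 16.6 ± 2.97 CPM after saline (SD, n = 4 each), a log2 fold change of -0.39 ± 0.19 (SE) that did not pass in edgeR's quasi-likelihood test (adjusted p = 0.572). Its 95% interval ran from -0.82 to 0.04. With the GC and length offsets the value was -0.19 ± 0.22, in WT alone it turned from -0.50 ± 0.27 to 0.25 ± 0.31, and in Set7KO alone it went from -0.28 ± 0.27 to -0.63 ± 0.31. Adrb1 (ENSMUSG00000035283, chromosome 19, 56722199 to 56733113, plus strand) has a GC content of 58.8% in its longest transcript, the highest among the 8 genes tested.

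Of the alpha1 receptor genes, Adra1b differed most between the WT groups and Adra1a between the Set7KO saline libraries. Adra1b was at 53.6 and 94.5 CPM in the WT saline libraries against 26.7 and 36.6 CPM in those of WT mice given isoproterenol. In Set7KO the 4 libraries lay close together, at 48.9 and 48.1 CPM with saline, against 57.2 and 48.8 CPM with isoproterenol. The WT isoproterenol libraries were the lowest of the 8. In WT the difference was 2.34-fold lower after isoproterenol, a log2 fold change of -1.23 ± 0.30 (SE) with an adjusted p of 0.0941 in edgeR, and in Set7KO it was 0.13 ± 0.30 (adjusted p = 0.901). The difference between these responses was 1.35 ± 0.42 and did not pass either (adjusted p = 0.104). Without WT saline replicate 2, the highest library, the WT value was -0.80 (adjusted p = 0.340).

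The Adra1b value in WT was the largest among the 8 genes tested in that comparison, and its call depended on the setting. It passed in DESeq2 (adjusted p = 0.00475), in edgeR with no filter on low counts (0.0327), and in edgeR without Set7KO saline replicate 1 (0.0328) or replicate 2 (0.0309), neither of which belongs to the WT groups. The share of all genes called under each of these settings is not given here. With GC and length offsets the Adra1b value in WT was -0.68 ± 0.30 (adjusted p = 0.299), and the difference between genotypes was 0.56 ± 0.42 (0.544). The sum of the 8 cardiomyocyte markers stood at 85712 to 88820 CPM in the WT isoproterenol libraries against 106639 to 132261 CPM in the WT saline libraries. Its members did not move as one: Myh6, Actn2, Myl2, Tnni3, Mb and Ckm were lower without overlap, Tnnt2 overlapped, and Ttn was higher, at 4734 and 4775 CPM against 1423 and 2155 CPM. Sums of erythroid (1254 to 1519 against 3767 to 4260 CPM), macrophage (272 to 314 against 410 to 554 CPM), endothelial (1161 to 1187 against 1296 to 1747 CPM) and lymphocyte markers (1.04 to 1.68 against 6.90 to 7.89 CPM) were lower in the WT isoproterenol libraries as well. The skeletal muscle sum was lower too. Most of it was Ckm (2694 and 2675 against 5033 and 6130 CPM), which is also among the cardiomyocyte markers. Acta1 was lower as well (455 and 117 against 1044 and 1413 CPM). Of the rest, none above 3.43 CPM, Tnni2 was lower and Tnnt3 higher, and Myh1 and Myh4 overlapped. Sums of fibroblast (2658 to 3179 against 3135 to 3808 CPM), smooth muscle and pericyte, Schwann and nerve, atrial and adipocyte markers overlapped. Members of several lists were mixed. Macrophage Csf1r, C1qa, C1qb and Cd68 were lower, Adgre1 and Lyz2 overlapped, and Mrc1 was higher. Endothelial Kdr and Vwf overlapped and the rest were lower. Fibroblast Dcn, Lum and Pdgfra were higher, Gsn and Tcf21 lower, and Col1a1 and Mfap5 overlapped. The part of these markers in the result was not tested. In whole-tissue RNA, fewer cells of a type and less RNA per cell cannot be told apart. The marker levels carry no offsets, and the WT isoproterenol libraries had negative GC differences (-1.08 and -0.78). Between these WT groups 72.7% of all genes tested did not overlap. The part of GC content in the marker sums was not tested. Adra1b (ENSMUSG00000050541) lies on chromosome 11 at 43774606 to 43901210, minus strand.

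Adra1a stood at 24.1 and 19.4 CPM with saline, against 15.7 and 26.9 CPM with isoproterenol in WT. In Set7KO it was 11.5 and 41.1 CPM with saline, against 15.8 and 11.7 CPM with isoproterenol. The saline pair of Set7KO thus held both the lowest and the highest value of the 8 libraries. The log2 fold change in Set7KO was -0.94 ± 0.54 (SE; adjusted p = 0.604 in edgeR), and 0.26 without Set7KO saline replicate 2. In WT it was -0.03 ± 0.53 (adjusted p = 0.972). Per length, Adra1b exceeded Adra1a 5.73-fold and 12.6-fold in the WT saline libraries, 4.40-fold and 3.51-fold in the WT isoproterenol libraries, 11.0-fold and 3.02-fold in the Set7KO saline libraries, and 9.35-fold and 10.8-fold in the Set7KO isoproterenol libraries. Adra1b was thus the more abundant alpha1 receptor transcript in all 8 libraries. Adra1a (ENSMUSG00000045875) lies on chromosome 14 at 66635251 to 66771168, plus strand.

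**Figure D2:**
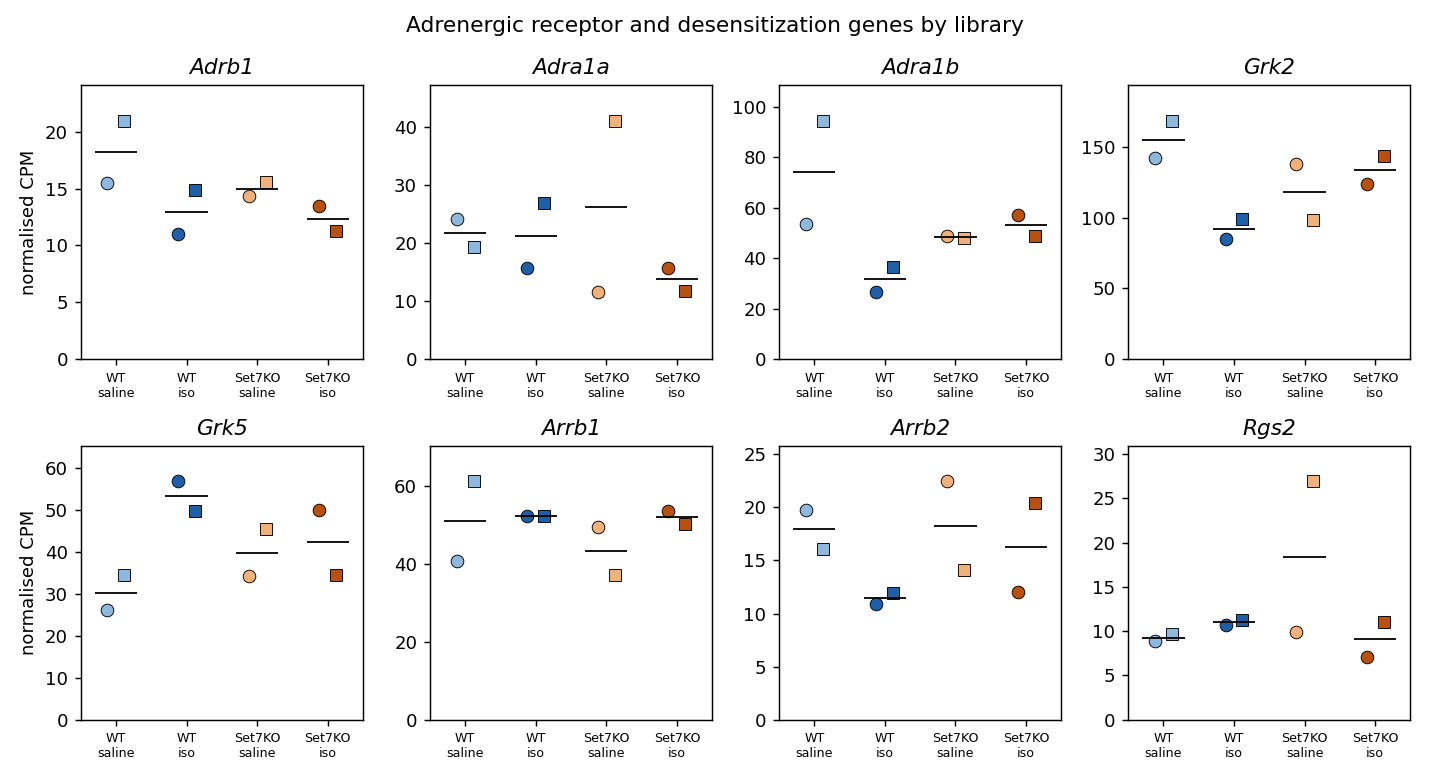
Normalised CPM of the 8 genes in each library, from 0 on each vertical axis, with circles for replicate 1, squares for replicate 2 and a bar at the mean of each group of 2. Adra1b lies furthest below the other groups in WT isoproterenol (26.7 and 36.6 CPM), and Adra1a and Rgs2 are highest in Set7KO saline replicate 2 (41.1 and 26.9 CPM).

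The receptor kinase genes Grk2 and Grk5 had values of opposite sign after isoproterenol in WT, neither of which passed. Grk2 was at 142 and 169 CPM in the WT saline libraries against 84.7 and 99.4 CPM in those of WT mice given isoproterenol. In Set7KO it was at 138 and 98.1 CPM with saline, against 124 and 143 CPM with isoproterenol. The 3 lowest Grk2 values belonged to the 3 libraries with a negative GC difference, the WT isoproterenol pair and Set7KO saline replicate 2. The log2 fold change in WT was -0.76 ± 0.24 (SE, adjusted p = 0.102 in edgeR), and -0.10 ± 0.16 with GC and length offsets (adjusted p = 0.757). Without Set7KO saline replicate 1 or replicate 2 the WT value passed in edgeR, at adjusted p of 0.0399 and 0.0345, and it passed in DESeq2 (0.0326). In Set7KO the value was 0.18 ± 0.24 (adjusted p = 0.831). The interaction, 0.93 ± 0.34 (adjusted p = 0.125), was 0.01 ± 0.22 with the offsets, and edgeR called it without Set7KO saline replicate 1. Grk2 (ENSMUSG00000024858) lies on chromosome 19 at 4286001 to 4306222, minus strand.

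Grk5 stood at 26.0 and 34.5 CPM in the WT saline libraries against 56.7 and 49.7 CPM in those of WT mice given isoproterenol, without overlap. In Set7KO it was 34.1 and 45.4 CPM with saline, against 49.99 and 34.4 CPM with isoproterenol, and the groups overlapped. In WT the difference was 1.76-fold, a log2 fold change of 0.81 ± 0.27 (SE, adjusted p = 0.107 in edgeR). It was 0.64 ± 0.19 with GC and length offsets (adjusted p = 0.210), and between 0.62 and 1.00 without each library in turn. Averaged over genotypes the mean was 47.7 ± 9.43 CPM after isoproterenol against 35.01 ± 7.95 CPM after saline (SD, n = 4 each), a log2 fold change of 0.45 ± 0.19 (adjusted p = 0.518 in edgeR). The Set7KO response was 0.09 ± 0.27 and the interaction -0.73 ± 0.39 (adjusted p = 0.223). Grk5 was the kinase gene whose value kept its sign and most of its size with the offsets, although it passed in 0 of the settings run. Grk5 (ENSMUSG00000003228) lies on chromosome 19 at 60889749 to 61095968, plus strand.

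The balance of the kinase transcripts was compared within libraries. Per length, Grk2 exceeded Grk5 by 8.61-fold and 7.71-fold in the WT saline libraries and by 2.35-fold and 3.15-fold in the WT isoproterenol libraries. In Set7KO the ratios were 6.38 and 3.41 after saline and 3.90 and 6.57 after isoproterenol. The WT groups did not overlap in this ratio and the Set7KO groups did. Of all genes tested, 72.7% in WT and 34.7% in Set7KO did not overlap between treatments, and a share for ratios was not computed. The 3 lowest ratios were those of the 3 libraries with a negative GC difference, and the longest transcripts have a GC content of 56.6% (Grk2) and 48.4% (Grk5); the part of GC content in the ratio was not tested.

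The arrestin genes showed no difference that passed. Arrb1, which encodes beta-arrestin 1, was at 40.7 and 61.1 CPM with saline, against 52.3 and 52.1 CPM with isoproterenol in WT. In Set7KO it was at 49.5 and 37.0 CPM with saline, against 53.4 and 50.3 CPM with isoproterenol. The 4 isoproterenol libraries were closer together (52.0 ± 1.29 CPM, SD, n = 4) than the 4 saline libraries (47.1 ± 10.7 CPM). The averaged log2 fold change was 0.15 ± 0.18 (SE) with a 95% interval from -0.27 to 0.56 (adjusted p = 0.777 in edgeR). In WT the value was 0.04 ± 0.26, and 0.34 ± 0.20 with GC and length offsets. Arrb1 (ENSMUSG00000018909) lies on chromosome 7 at 99535466 to 99606771, plus strand.

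Arrb2, which encodes beta-arrestin 2, stood at 19.8 and 16.0 CPM with saline, against 10.9 and 11.95 CPM with isoproterenol in WT. In Set7KO it was at 22.4 and 14.1 CPM with saline, against 12.02 and 20.4 CPM with isoproterenol, where each group held 1 high and 1 low library. The log2 fold change in WT was -0.65 ± 0.33 (SE, adjusted p = 0.207 in edgeR) and -0.03 ± 0.23 with GC and length offsets. The averaged value was -0.41 ± 0.23 (adjusted p = 0.617). Arrb2 (ENSMUSG00000060216) lies on chromosome 11 at 70432635 to 70440828, plus strand, and its exons hold 64 bases of the microRNA gene Mir7115. Per length, the ratio of Arrb1 to Arrb2 was 0.524 and 0.969 in the WT saline libraries, 1.22 and 1.11 in the WT isoproterenol libraries, 0.562 and 0.666 in the Set7KO saline libraries, and 1.13 and 0.627 in the Set7KO isoproterenol libraries. The WT groups did not overlap in this ratio, and the Set7KO groups did. Of all genes tested, 72.7% in WT and 34.7% in Set7KO did not overlap between treatments, and a share for ratios was not computed. The longest transcripts have a GC content of 53.5% (Arrb1) and 55.7% (Arrb2), and the part of GC content in the ratio was not tested.

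Rgs2, whose product turns off Gq and is itself induced by cyclic AMP in several cell types, lay between 7.11 and 11.3 CPM in 7 of the 8 libraries. It was at 8.85 and 9.65 CPM in the WT saline libraries against 10.7 and 11.3 CPM in those of WT mice given isoproterenol. In Set7KO it was at 9.95 and 26.9 CPM with saline, against 7.11 and 11.05 CPM with isoproterenol. Set7KO saline replicate 2 alone lay above that band, and the other library of its group did not share its level. That library also stood apart from its partner in the erythroid sum (10516 against 4231 CPM) and in Ttn (4672 against 1425 CPM). Its GC difference was -0.91, against 0.36 in the partner. Fibroblast markers were mixed. In that library Gsn (1241 against 2995 CPM), Col1a1, Tcf21 and Mfap5 were lower. Dcn (256 against 124 CPM) and Lum (9.91 against 5.66 CPM) were higher, and Pdgfra was level (24.8 against 24.2 CPM). The part of these markers in the Rgs2 level was not tested. The log2 fold change in Set7KO was -1.03 ± 0.44 (SE, adjusted p = 0.515 in edgeR), -0.13 without that library, and -1.57 (adjusted p = 0.0423) without the other saline library of the group. Without the latter edgeR also called Rgs2 for the interaction and for Set7KO against WT after saline. In WT the value was 0.25 ± 0.44 and turned to -0.48 ± 0.36 with the offsets, Rgs2 having the lowest GC content of the 8 genes at 43.6%. With all 8 libraries the Set7KO value went from -1.03 to -0.58 ± 0.35 with the offsets. The part of GC content in the Rgs2 level was not tested. Rgs2 (ENSMUSG00000026360) lies on chromosome 1 at 143999338 to 144004161, minus strand.

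The promoters of Adrb1 and Rgs2 are shown because the cascade that isoproterenol starts reaches factors of the CREB family, which bind the cyclic AMP response element TGACGTCA and its short core TGACG. RefSeq promoter windows (GRCm38.p6) were matched for 4 of the 9 genes. The windows run from 250 to 51 bases before the annotated start, Adrb1 at chr19:56721867-56722066 on the plus strand and Rgs2 at chr1:144004200-144004399 on the minus strand. Sequences read 5′ to 3′ along the gene, with the core on either strand in capitals.
Adrb1: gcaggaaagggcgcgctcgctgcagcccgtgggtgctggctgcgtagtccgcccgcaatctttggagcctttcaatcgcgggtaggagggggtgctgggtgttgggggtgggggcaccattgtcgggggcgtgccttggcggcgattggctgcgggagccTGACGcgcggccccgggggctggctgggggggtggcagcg
Rgs2: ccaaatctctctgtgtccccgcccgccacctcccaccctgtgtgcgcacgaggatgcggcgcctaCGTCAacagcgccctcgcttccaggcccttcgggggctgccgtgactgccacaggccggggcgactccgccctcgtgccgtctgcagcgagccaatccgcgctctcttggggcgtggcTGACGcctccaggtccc
The core occurred once in the Adrb1 window, starting 90 bases before the start, and in the Rgs2 window at 67 bases on the gene's strand and 185 bases on the other. It was found in 12.7% of all 32851 windows of 200 bases, and the full element in 0.8% but in neither of these. The windows of Adrb1 (72.5% GC) and Rgs2 (71.0% GC) were richer in GC than the median window (51.5%). The share among windows of like GC content was not computed. The windows of Grk5 (46.0% GC) and of both annotated starts of Adra1b (42.5% and 73.0% GC) held no core. A match of letters is a description and not a binding site.

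With all 8 libraries, the filter on low counts and no offsets, 0 of the 8 genes passed at an adjusted p under 0.05 in any of the 7 comparisons by edgeR, and limma-voom called 0 as well; the edgeR calls made under other settings are those given above for Adra1b, Grk2 and Rgs2 and below for Adra1a. Shares of all genes called in DESeq2, with no filter or without a library are not given here. Calls under those settings are thus not shown to be particular to these genes. For isoproterenol averaged over genotypes 0.0510% of all genes tested passed in edgeR. At an unadjusted p under 0.05, Adra1b was lower and Grk5 higher, 2 of 8, where 9.40% of all genes reached that level. The median log2 fold change of the 8 was -0.39, with 6 negative and 2 positive values, against 0.02 over all genes tested, and with the offsets it was -0.21 against 0.03. DESeq2 called 0 of the 8 in this comparison.

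In WT, edgeR called 0 of the 8 and 0% of all genes, while 3 of 8 (Adra1b, Grk2 and Grk5) and 31.7% of all genes were at an unadjusted p under 0.05. DESeq2 called Adra1b and Grk2, and its share of all genes called is not given here. The isoproterenol and saline libraries did not overlap for 6 of the 8 genes in WT, 2 higher and 4 lower, which is close to the 72.7% of all genes tested that did not overlap. The 4 genes of lowest GC content (Rgs2, Grk5, Adra1a and Arrb1, 43.6% to 53.5%) had log2 fold changes from -0.03 to 0.81. The 4 of highest GC content (Adra1b, Arrb2, Grk2 and Adrb1, 54.5% to 58.8%) had values from -1.23 to -0.50. Within the second set, Adra1b (54.5%) had the lowest value, -1.23, and Adrb1 (58.8%) the highest, -0.50. In the first, Rgs2 (43.6%) stood at 0.25 and Grk5 (48.4%) at 0.81. The part of GC content in these values was not tested. With the offsets the values of Arrb1, of the first set, and of all 4 of the second were higher than without. The offsets brought the median of the 8 from -0.26 to -0.04.

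In Set7KO, edgeR and DESeq2 called 0 of the 8, with 0% of all genes called in edgeR, and Rgs2 was the 1 gene at an unadjusted p under 0.05, a level that 9.66% of all genes reached. Adrb1 was lower and Arrb1 higher without overlap, 2 of 8, where 34.7% of all genes did not overlap. For the interaction edgeR called 0 of the 8 and 0% of all genes. Adra1b and Grk2 were at an unadjusted p under 0.05, as were 30.6% of all genes, and DESeq2 called Adra1b. Without Set7KO saline replicate 1, edgeR called the interaction for Adra1a, Grk2 and Rgs2.

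**Figure D3:**
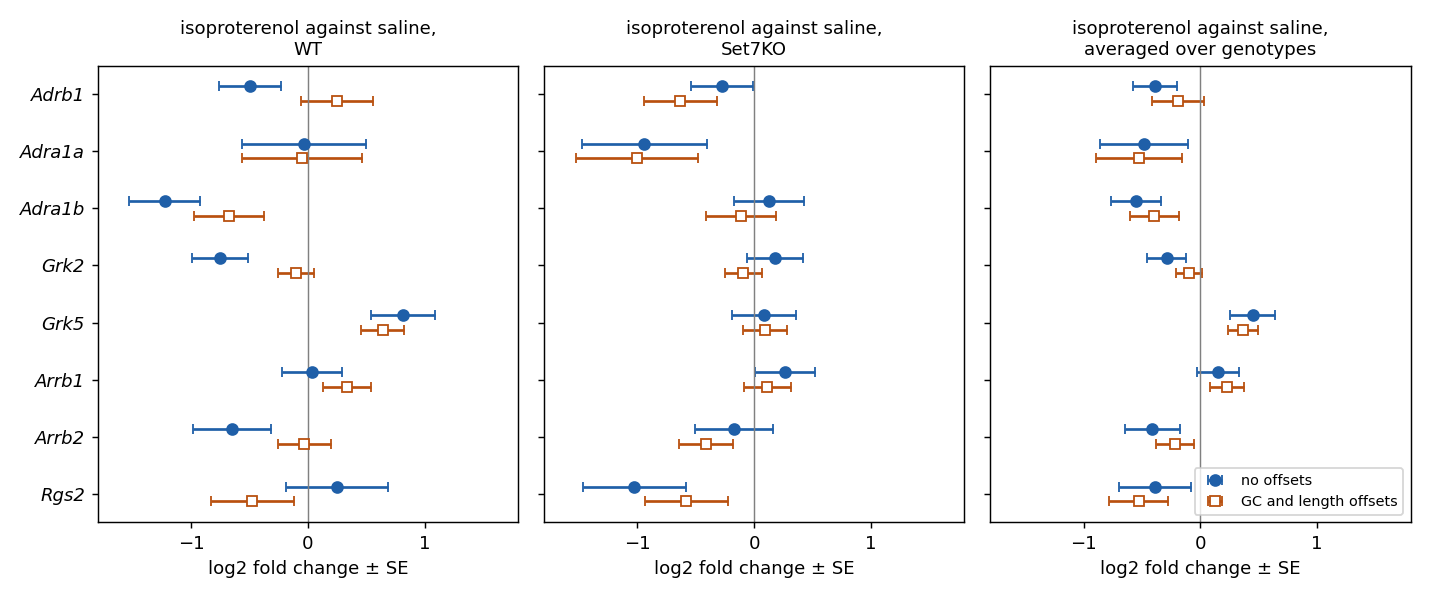
Log2 fold change after isoproterenol (points, with bars of 1 SE) for the 8 genes in WT, in Set7KO and averaged, without offsets (filled circles) and with offsets for GC content and length (open squares). In WT the squares of Adrb1, Grk2, Arrb2, Adra1b and Arrb1 lie to the right of their circles and that of Rgs2 to the left, and Grk5 stays positive at 0.81 and 0.64.

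Loss of Set7 was not accompanied by a difference in these genes that passed. Averaged over treatments, edgeR called 0 of the 8 and 0.00567% of all genes, 1 gene, which was Setd7. The number of the 8 at an unadjusted p under 0.05 was 0, DESeq2 called 0, and 1.56% of all genes reached that unadjusted level. Rgs2 had the largest value, 0.36 ± 0.31 (SE; 13.8 ± 8.93 CPM in Set7KO against 10.1 ± 1.10 CPM in WT, SD, n = 4 each), and it was -0.05 without Set7KO saline replicate 2. Adrb1 stood at -0.18 ± 0.19 with a 95% interval from -0.61 to 0.25, and Grk5 at 0.03 ± 0.19 with an interval from -0.41 to 0.47.

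Within saline and within isoproterenol the genotypes were compared as well. After saline edgeR called 0 of the 8 and 0.00567% of all genes, DESeq2 called 0, and 0 of the 8 against 10.3% of all genes were at an unadjusted p under 0.05. Adra1b (-0.61 ± 0.30) and Rgs2 (1.00 ± 0.44) had the largest values. With the offsets they were -0.26 and 0.42, and without Set7KO saline replicate 2 the Rgs2 value was 0.13. After isoproterenol edgeR called 0 of the 8 and 0.00567% of all genes, and DESeq2 called 0. Adra1b was 1.67-fold higher in Set7KO than in WT, a log2 fold change of 0.74 ± 0.30 (adjusted p = 0.241), and was the 1 gene of the 8 at an unadjusted p under 0.05, against 19.9% of all genes. With the offsets its value was 0.31 ± 0.30. Adra1b, Grk2 and Arrb2 were higher in Set7KO without overlap, 3 of 8, where 31.8% of all genes were. With the offsets Grk2 went from 0.54 to 0.03 and Arrb2 turned from 0.50 to -0.04. Comparisons that involve the same group share its libraries, so these values are not independent of those for isoproterenol.

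Transcripts most like Adrb1 and Rgs2 over the 8 libraries were sought by the root mean square difference of centred log2 CPM among 10800 protein-coding genes. For Adrb1 the nearest were Zfat (0.0679), Slc43a2 (0.0902) and B3galt6 (0.0975), where the median gene differed by 0.419. For Rgs2 they were Pfkfb1 (0.202), Ccl9 (0.220) and Tyw3 (0.221), against a median of 0.630. The likeness for Rgs2 includes the high value in Set7KO saline replicate 2.

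The rest of the pathway was read from 9 lists of 95 other genes, of which 92 were tested. After isoproterenol averaged over genotypes, edgeR and limma-voom called 0 of the 92, where 0.0510% of all genes were called. At an unadjusted p under 0.05, 5 were higher and 8 lower, against 4.50% and 4.90% of all genes. The median log2 fold change of the 92 was 0.05, against 0.02 over all genes tested. For the settings that follow, the share of all genes called is not given here. DESeq2 called 3, among them Dusp1 and Fos, edgeR with no filter called Fos, and edgeR without Set7KO saline replicate 2 called Dusp1 and Fos.

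Upstream of the G protein, 3 of 4 other adrenergic receptor genes were tested and 0 passed; Adra1d, the third alpha1 receptor, stood at 5.92 ± 1.84 CPM after isoproterenol and 6.75 ± 2.27 CPM after saline (SD, n = 4 each). Of 13 other receptor kinase and RGS genes 12 were tested and 0 passed. Rgs5, a pericyte transcript, had a log2 fold change of 0.61 ± 0.22 (SE, adjusted p = 0.427 in edgeR), Rgs16 of -1.47 ± 0.54 and Rgs14 of -0.73 ± 0.30. Rgs16 was at 1.03 ± 0.181 CPM after isoproterenol and 2.89 ± 1.82 CPM after saline (SD, n = 4 each), and the groups overlapped. With the offsets Rgs5 was at 0.36 and Adra1d turned from -0.20 to 0.05. The sum of the smooth muscle and pericyte markers, which includes Rgs5, lay between 428 and 674 CPM.

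Of 11 G protein subunit genes 0 passed. Gnas, which encodes the stimulatory alpha subunit, was at 905 ± 118 CPM after isoproterenol and 1080 ± 148 CPM after saline (SD, n = 4 each), a log2 fold change of -0.26 ± 0.13 (adjusted p = 0.595 in edgeR). Gng12 stood at 0.42 ± 0.19 and Gnai3, an inhibitory alpha subunit, at 0.49 ± 0.30. With the offsets these 3 values were -0.12, 0.17 and 0.30. Of 9 adenylyl cyclase genes 0 passed. Adcy1 had the smallest p of them, at 3.26 ± 1.00 CPM after isoproterenol and 7.08 ± 3.65 CPM after saline (SD, n = 4 each), with a log2 fold change of -1.03 ± 0.31 (adjusted p = 0.335), and Adcy9 and Adcy4 were at 0.44 ± 0.36 and -0.19 ± 0.18. Adcy1 was at -1.01 and Adcy4 at -0.039 with the offsets.

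Downstream of cyclic AMP, 0 of 15 genes of protein kinase A, its anchors and Epac passed. Popdc2, a cyclic AMP-binding membrane protein, stood at -0.28 ± 0.16, Rapgef3 (Epac1) at -0.37 ± 0.22 and Rapgef4 (Epac2) at 0.50 ± 0.30. With the offsets these were -0.12, -0.19 and 0.34. Of 10 substrates of protein kinase A in cardiomyocytes 0 passed. Ppp1r1a, an inhibitor of protein phosphatase 1, was at 1.14 ± 0.570 CPM after isoproterenol and 2.85 ± 1.25 CPM after saline (SD, n = 4 each), with a log2 fold change of -1.34 ± 0.38 (adjusted p = 0.316 in edgeR). Rrad, a brake on the L-type calcium channel, stood at -0.78 ± 0.28 (adjusted p = 0.426) and Fxyd1 (phospholemman), a regulator of the sodium pump, at -0.29 ± 0.17. With the offsets Ppp1r1a was at -1.13, Rrad at -0.49 and Fxyd1 at -0.073.

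Of 12 cyclic AMP-responsive transcripts 0 passed, and values of both signs occurred. Dusp1, a phosphatase of MAP kinases, was at 36.8 ± 9.51 CPM after isoproterenol and 78.2 ± 28.3 CPM after saline (SD, n = 4 each), a log2 fold change of -1.10 ± 0.30 (SE, adjusted p = 0.299 in edgeR). Fos, an immediate early gene, stood at 0.889 ± 0.460 CPM against 5.05 ± 4.85 CPM (-2.42 ± 0.67, adjusted p = 0.306). Crem, whose products include a repressor induced by cyclic AMP, lay in the opposite direction at 4.99 ± 1.00 CPM against 2.96 ± 1.04 CPM (0.80 ± 0.24, adjusted p = 0.341). Saline and isoproterenol libraries overlapped for each of these genes. With the offsets Dusp1 was at -0.92, Fos at -2.27 and Crem at 0.54.

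Of 13 receptor trafficking genes 0 passed, the smallest p values belonging to Cltc (clathrin heavy chain, 0.59 ± 0.38), Rab4a (-0.25 ± 0.17) and Vps35 (0.47 ± 0.33). With the offsets these were 0.37, -0.087 and 0.20. Of 8 genes of catecholamine uptake and breakdown 7 were tested and 0 passed. Maoa, a monoamine oxidase, stood at 0.83 ± 0.29 (adjusted p = 0.406) and Slc22a3, an extraneuronal transporter, at -0.20 ± 0.29. With the offsets Maoa was at 0.55.

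**Figure D4:**
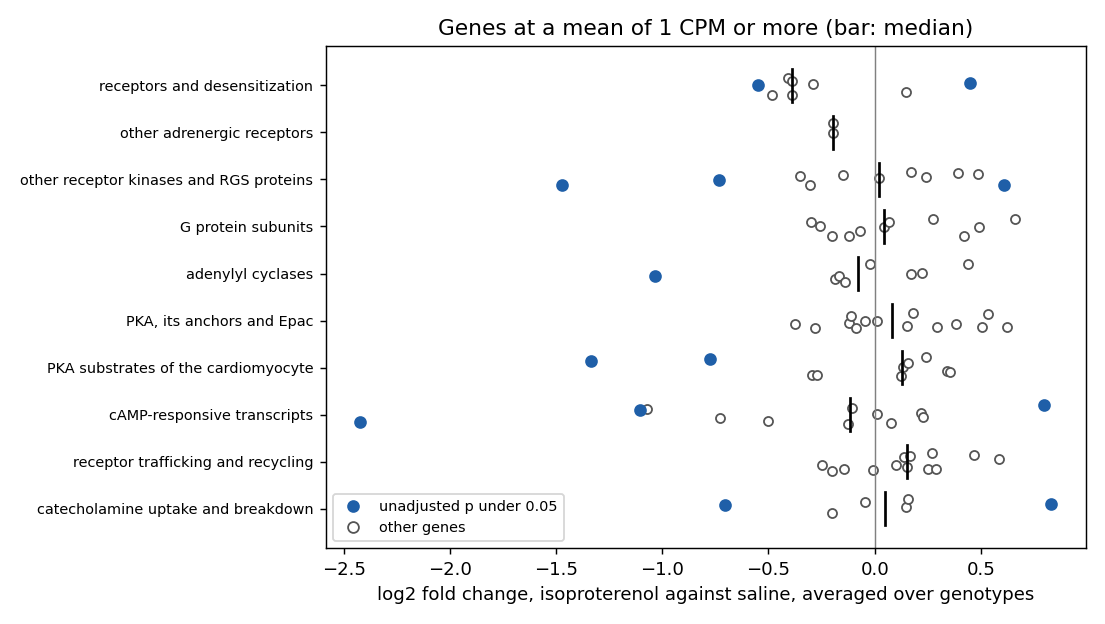
Log2 fold change after isoproterenol, averaged over genotypes, for the genes of each list at a mean of 1 CPM or more (1 point per gene; filled where the unadjusted p was under 0.05; bar at the median of the points shown). The bar of the receptors and desensitization genes lies at -0.39, and Fos is the point furthest to the left at -2.42.

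Between the genotypes, averaged over treatments, 0 of the 92 genes passed in edgeR and 0 were at an unadjusted p under 0.05, where 1.56% of all genes were. Creb3l2 (-0.39 ± 0.19 SE) and Pde4b, a cyclic AMP phosphodiesterase (-0.49 ± 0.25), had the smallest p values of the cyclic AMP-responsive transcripts, each with an adjusted p of 1.00. The values of the 92 genes ran from -0.51 for Adcy1 to 0.75 for Nr4a3, an immediate early nuclear receptor, with a median of -0.02. Other genes with the smallest p in their lists were Fxyd1 (0.30 ± 0.17), Gng12 (-0.27 ± 0.19), Prkar1b (0.32 ± 0.21) and Rgs14 (0.48 ± 0.30), each with overlapping groups. With the offsets Fxyd1 was at 0.18, and the median of the 92 was -0.03.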

How the data were processed

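RNA sequencing of 8 mouse heart libraries gave a table of whole-number counts per Ensembl gene. Per the labels' protocols, RNA was extracted with TRIzol and libraries were made with a stranded mRNA kit. The authors deposited raw counts, and per the submitters' processing notes HISAT2, HISAT, StringTie, edgeR and GRCm38 were used; the sources used here do not give their versions, their roles or how strand and shared reads were handled. Symbols, coordinates, exonic lengths and GC content of the longest transcript came from GENCODE M21, which named 55227 of 55487 identifiers.

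A mean for each of 4 groups was fitted to all 8 libraries in edgeR 4.0.16 (R 4.3.3) with TMM normalization and filterByExpr. Its quasi-likelihood F-test (two-sided) was Benjamini-Hochberg adjusted over 17636 genes for each of the 7 contrasts (threshold 0.05); the model had 4 residual degrees of freedom. CPM use TMM library sizes. Standard errors came from the F statistic. The floor was 3 counts. The fit was tested on simulated data. Alternatives were size factors of DESeq2, no filter, limma-voom (limma 3.58.1), DESeq2 1.42.0, per-library offsets from splines of GC content and length (5 degrees of freedom each), and leaving out each library. These offsets without Set7KO saline replicate 2 were added after seeing the data.

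The genes and lists were chosen with earlier results of these data known. Named are the 9 genes in all comparisons; from each pathway list up to 3 genes (isoproterenol) or 2 (genotype) that had the lowest p among genes averaging 1 CPM or more; and the 3 transcripts nearest to Adrb1 and to Rgs2 among genes averaging 2 CPM or more. Ratios between genes were chosen after the values were seen. Marker sums that no result above uses are not printed, and some results of the pathway lists are not reported here.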

Additional observations from a re-analysis of the deposited data

Results flagged for a closer look

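In groups of 4 libraries, the highest or lowest library was compared with the rest by Dixon's ratio of its gap to the whole range. Of 32 groups tested (8 genes, pooled by treatment or by genotype), 6 held such a library. Chance gives about 1 in 20 for independent groups of like values. Here groups pool conditions and share libraries, so 6 of 32 cannot be set against that rate. Set7KO saline replicate 2 stood apart for Adra1a among the Set7KO libraries (41.1 CPM) and for Rgs2 among the saline libraries (26.9 CPM). Adra1b stood apart at 94.5 CPM in WT saline replicate 2 among the saline libraries and at 57.2 CPM in Set7KO isoproterenol replicate 1 among the Set7KO libraries. Among the isoproterenol libraries, Arrb2 was high in Set7KO isoproterenol replicate 2 (20.4 CPM) and Rgs2 low in Set7KO isoproterenol replicate 1 (7.11 CPM).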

How the results depend on the processing

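No paired analysis was possible because the labels give the groups no shared replicate numbers; the serial numbers in the titles differ for every library. Log2 fold changes of the 8 genes were tallied for isoproterenol averaged, in WT and in Set7KO, and for Set7KO against WT averaged. Among 192 under settings other than leaving out a library alone, 174 kept their direction and side of the threshold, 15 reversed and 3 passed. These 192 include the GC and length offsets without Set7KO saline replicate 2, added after seeing the data, whose reversals are listed below. Among 256 with a library left out and no other change, 23 reversed. The interaction and the genotype comparisons within a treatment are outside this tally. There the GC and length offsets reversed the interaction for Adrb1 (0.22 to -0.88), Arrb1 (0.23 to -0.22) and Arrb2 (0.48 to -0.38). They also reversed Set7KO against WT after saline for Adrb1, Grk2 and Arrb1, and after isoproterenol for Arrb2 and Rgs2. The other genes kept their sign there. For isoproterenol in WT, 1 of the genes was called with no filter (Adra1b), 2 in DESeq2 (Adra1b and Grk2) and 0 to 2 without each library; for the interaction 1 was called in DESeq2 and 0 to 3 without each library. Without each library 0 to 1 were called for isoproterenol in Set7KO and for Set7KO against WT after saline. Of the pathway genes 1 was called with no filter, 3 in DESeq2 and 0 to 2 without each library. With no filter Adra1a in WT was 0.0097, and Arrb1 in WT was -0.0071 with the size factors of DESeq2 and -0.0072 in DESeq2. The GC and length offsets gave 0.25 for Adrb1 and -0.48 for Rgs2 in WT, and -0.11 for Adra1b and -0.091 for Grk2 in Set7KO. The same offsets without Set7KO saline replicate 2, chosen after seeing the data, gave 0.054 (averaged) and 0.17 (Set7KO) for Adra1a, 0.035 (averaged) and 0.23 (WT) for Adrb1, -0.033 for Grk2 in Set7KO and -0.49 for Rgs2 in WT, and for Set7KO against WT -0.064 for Adra1b and 0.016 for Arrb1. Without each library in turn, the isoproterenol response ran for Adra1a from -0.81 to 0.10 averaged, from -1.58 to 0.26 in Set7KO and from -0.48 to 0.31 in WT. It ran from -0.23 to 0.32 for Arrb1 in WT, from -0.66 to 0.053 for Rgs2 averaged, and in Set7KO from -0.60 to 0.20 for Arrb2, from -0.045 to 0.45 for Grk2 and from -0.21 to 0.33 for Grk5. Set7KO against WT ran from -0.74 to 0.15 for Adra1a, -0.11 to 0.33 for Adra1b, -0.26 to 0.0645 for Arrb1, -0.062 to 0.22 for Grk2, -0.0798 to 0.17 for Grk5 and -0.054 to 0.63 for Rgs2. Where a library was left out, its partner was taken to vary as much as the remaining groups. The causes of these reversals were not tested. With 2 libraries a group, differences smaller than the intervals given could not be resolved, and Adrb3 was too low to compare.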
